A study of Oryza sativa Indica Group and Oryza sativa Japonica Group with 12 samples.

Results

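H3K27me3-associated chromatin contacts of roots were set against those of seedlings in Minghui 63 (MH63), an indica rice variety. The labels name no mutation, transgene or treatment for either group, which differ there by tissue alone, root or seedling. Each group held 2 replicates, so 4 of the 12 samples of the series belong to this comparison. The authors deposited 1 list of loops per tissue with both replicates pooled. The root and seedling lists of ZS97, the other indica variety of the series, were also used, each pooled from 2 replicates. A region below is a set of overlapping loop anchors, merged over the lists of both indica varieties of the series, and 12343 of 14152 such regions had a listed partner in MH63 root or seedling. Roots and seedlings are mixtures of cell types, the labels give no age, and they do not say whether seedlings were taken with their roots. Contact lists hold no expression values and no gene names, so the tissue labels could not be checked against marker genes.

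H3K27me3 is the histone mark set by Polycomb repressive complex 2, which keeps developmental genes silent in tissues that do not use them. In plants its target set differs between organs, so that a gene marked in the shoot can be free of the mark in the root and the reverse. Chromatin that carries the mark can meet in space, within a chromosome and between chromosomes, and stretches with many such contacts are called hubs. ChIA-PET pulls down chromatin with the mark, ligates DNA ends that lie close together and counts the joined ends that were sequenced as paired-end tags (PETs).

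The root list held 75056 loops with 695423 PETs and the seedling list 86383 loops with 509524 PETs. Joined over regions, they gave 72846 region pairs in root and 78240 in seedling, after 294 root and 1559 seedling loops with both anchors in the same region were left out. A pair counts as listed when at least 1 loop joins its regions, and each region of a pair is a partner of the other. With 1 list per tissue there was no spread between replicates, no test was possible, and all intervals are 95% intervals of counting error only.

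Whether a contact is listed depends on the tags at its anchors. A deposited p-value was reproduced to within 5% for 99.3% of root loops and 96.9% of seedling loops (those with p above 1e-10) by the Poisson chance of as many PETs, with an expected number equal to the tags of one anchor times those of the other, over a total for the list. This total, estimated from the list itself, was 41328801 tags in root and 22101544 in seedling, and the highest p-value listed was 0.00199 in root and 0.00706 in seedling. From these the fewest PETs that would have been listed, called the listing limit below, were worked out for every pair whose regions both had anchors in the other tissue. The limit was higher in root at the median. For pairs listed in seedling alone with both regions looped in root, the median was 2 PETs in seedling and the median limit in root was 4 PETs. For pairs listed in root alone, the median was 3 PETs and the median limit in seedling was 2 PETs.

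Most listed partners differed between the tissues, and what was shared lay close by. Within chromosomes 11342 pairs were listed in both tissues, 31.5% of the root pairs (31.0 to 32) and 37.5% of the seedling pairs (37.0 to 38.1). Another 24644 were listed in root alone and 18895 in seedling alone. Between chromosomes only 153 pairs were in both lists, 0.415% of 36860 root pairs (0.352 to 0.486) and 0.319% of 48003 seedling pairs (0.270 to 0.373). The shared pairs within chromosomes were few in comparison with their weight, since they held 68.5% of the root PETs and 72.4% of the seedling PETs within chromosomes.

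Sharing was lower at longer distance and was not symmetric. Of the seedling pairs under 20 kb, 71.8% were also listed in root, and of those from 20 to 100 kb 70.4%. The root pairs of these classes were found in seedling in 42.7% and 39.2% of cases. From 100 kb to 1 Mb the shares were 37.3% of seedling pairs and 30.4% of root pairs. From 1 to 5 Mb they were 4.65% and 9.88%, and over 5 Mb 24 pairs were in both lists, 0.533% of the seedling pairs and 0.889% of the root pairs. Root thus held most of the short contacts of seedling and added others, with 7885 pairs of 20 to 100 kb in root alone against 2138 in seedling alone, while from 1 to 5 Mb seedling had 4433 of its own and root 1971.

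**Figure D1:**
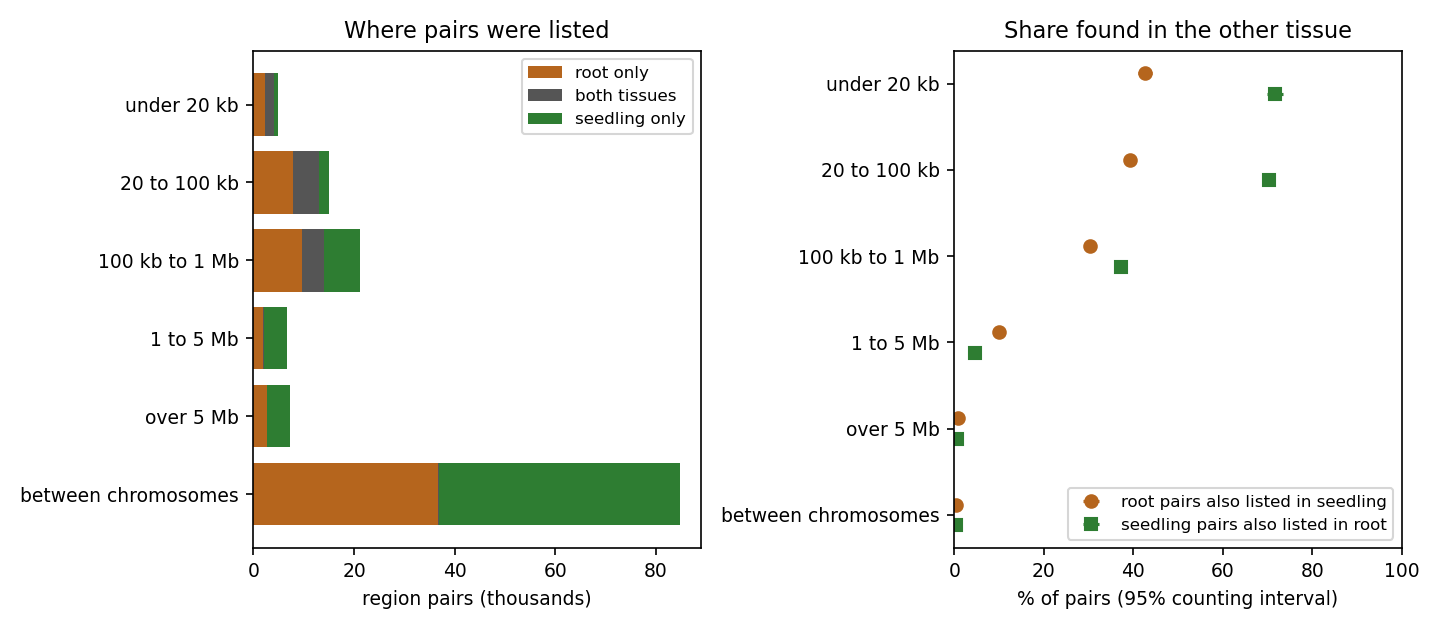
Region pairs by distance between regions in MH63. Left, stacked bars give pairs listed in root only, in both tissues and in seedling only; right, points give the percentage of each tissue's pairs found in the other with 95% counting intervals, from 71.8% of seedling pairs under 20 kb down to under 1% between chromosomes.

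Strong pairs were shared far more often than weak ones. Of root pairs within chromosomes with 50 or more PETs, 84.6% were listed in seedling (1859 of 2198), and of seedling pairs of that strength 90.4% were listed in root (1001 of 1107). At 2 PETs the shares were 5.70% of 7160 root pairs and 18.2% of 11106 seedling pairs. Distance mattered among strong pairs too. From 1 to 5 Mb, 81.3% of root pairs with 50 or more PETs were in the seedling list (74 of 91), but 38.6% of such seedling pairs were in the root list (27 of 70; 27.2 to 51.0). Over 5 Mb none of 16 seedling pairs of that strength was listed in root, with an exact 95% interval up to 20.6%.

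The comparison was repeated over pairs strong enough to be listed in the other tissue, taking their PETs scaled on total tags. Within chromosomes 58.1% of 16798 such root pairs were listed in seedling (57.3 to 58.8) and 49.2% of 20192 such seedling pairs in root (48.5 to 49.9). Under 20 kb the shares were 76.9% and 88.5%. From 1 to 5 Mb 25.7% of 738 root pairs were found again, and 4.64% of 2200 seedling pairs (3.8 to 5.6). Between chromosomes 2.34% of 3976 root pairs and 0.441% of 22438 seedling pairs were found again. Without scaling, the order within chromosomes was the opposite, 46.2% of root pairs and 60.9% of seedling pairs, and from 1 to 5 Mb 14.6% of 1437 root pairs and 7.01% of 756 seedling pairs were found again. Between chromosomes the unscaled shares were 0.598% and 0.761%. In either case distant pairs were found again less often than near ones.

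Over pairs within chromosomes that were listed in both tissues, PETs were scaled on the total of each list. The median pair had 14 PETs in root and 6 in seedling, a log2 ratio of 0.47. At least 2-fold more scaled PETs were found in root for 3806 of the 11342 pairs (33.6%) and at least 2-fold fewer for 1409 (12.4%). The 216 shared pairs from 1 to 5 Mb had a median of 32 PETs in root and 9 in seedling, a log2 ratio of 1.03. The excess in root depended on this scaling: on total tags the median log2 ratio was 0.02 over all shared pairs within chromosomes and 0.57 over those from 1 to 5 Mb.

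Regions were then compared by their number of partners, to describe gain and loss of contacts along the genome. Regions with at least 10 partners summed over both tissues were compared, and a region was called when the numbers differed at least 2-fold with an interval of the ratio that excluded 1. Of 8502 regions compared, 1986 had more partners in root, 23.4% of those compared, and 1198 had fewer, 14.1%. Regions with more partners in root had a median of 15 partners there and 0 in seedling, and 1091 of them had no listed partner in seedling. Those with fewer had a median of 15 in root and 40 in seedling, and 155 of them had none listed in root. The first were narrow, with a median width of 3.30 kb, and the second wide, at 9.85 kb, beside 4.03 kb for the regions not called.

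**Figure D2:**
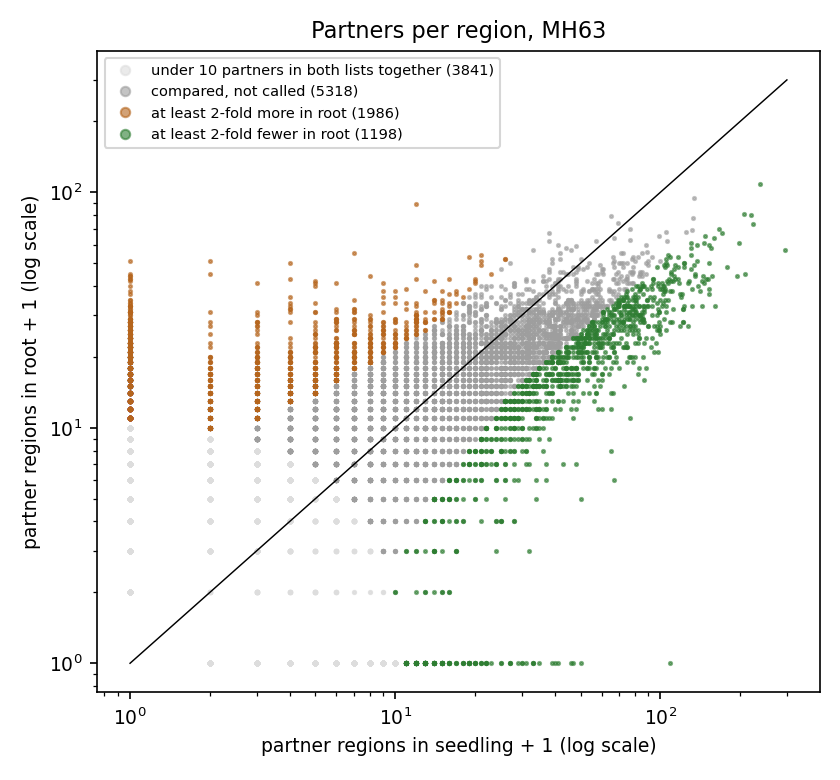
Partner regions of each MH63 region in seedling (x axis) and root (y axis), each plus 1, on log scales; colours mark the call and the line marks equal numbers. The 1986 regions with more partners in root lie mostly at low seedling numbers, and the 1198 with fewer at high seedling numbers.

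Kind of partner divided the calls. On the same chromosome, 777 of 4613 regions compared had more partners in root (16.8%) and 349 fewer (7.57%). On other chromosomes, 406 of 5712 regions had more (7.11%) and 1324 fewer (23.2%). This division was made on the lists as deposited alone, whose highest p-values differ. Cut at the highest p-value of the root list, the lists held 36853 loops between chromosomes in root and 25608 in seedling. The balance of gain and loss was not stable to the threshold. With the highest p-value of the root list applied to both, 2441 regions had more partners in root (29.8%) and 213 fewer (2.6%), whereas at a false discovery rate (FDR) below 0.01, 468 had more (9.14%) and 605 fewer (11.8%). Loops of at least 3 PETs gave 25.1% with more and 7.33% with fewer, those of at least 5 PETs 27.2% and 4.85%, and equal numbers of loops with the lowest p-values 25% and 8.97%. Partner numbers scaled on the pairs of each list gave 24.8% and 11.9%. Bins of 10 kb in place of regions gave 24.1% and 20.6%. Counted over pairs in both lists or above the listing limit of the other tissue, 211 had more (4.47%) and 1856 fewer (39.3%) with PETs scaled on total tags, and 2421 more (38.5%) and 151 fewer (2.4%) without scaling. Which tissue had more regions with extra partners thus depended on the setting.

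Tags and PETs moved with partner numbers. For PETs this was largely so by construction, since the PETs of a region were summed over its listed pairs. Tags were not independent of the lists either, since they were summed over the anchors of listed loops alone, and listing itself depends on anchor tags. Among 895 regions called higher in root with partners in both tissues, tags scaled on the total of each list were higher in root for 891, with a median log2 ratio of 2.81, and all 895 had more scaled PETs. Among 1043 called lower, 296 had more scaled tags in root, with a median log2 ratio of -0.35, and 76 had more scaled PETs, with a median of -1.20. Regions not called had a median log2 tag ratio of 0.74. Of these 5318 regions, 4217 had more scaled tags in root (79.3%) and 3129 more scaled PETs (58.8%). How much of a gain in partners is a gain of tags at the region was not tested.

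Chromosomes differed in their share of regions with more partners in root. The share was 31.5% on chromosome 12 (190 of 604), 31.0% on chromosome 11 (243 of 783), 29.1% on chromosome 4, 29.0% on chromosome 10 and 28.9% on chromosome 9. It was lowest on chromosome 3, at 16.1% (126 of 783), and was 16.6% on chromosome 2 and 18.7% on chromosome 1, beside 23.4% over the genome. With a common highest p-value chromosomes 11 and 12 again came first, at 39.0% and 38.4%, and chromosome 3 last, at 21.2%. At an FDR below 0.01 chromosome 12 had 19.1%, chromosome 9 17.1% and chromosome 1 3.95%, but chromosome 10 had 8.58%, below the 9.14% over the genome at that FDR. The share with fewer partners varied less, from 11.7% on chromosome 10 to 17.9% on chromosome 5.

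The 5 regions with the greatest gain in partners were 18.4 to 30.3 kb wide and had 0 to 11 partners in seedling. First came 13074392 to 13104735 on chromosome 4, which had 88 partners in root, 41 of them on other chromosomes, and 11 in seedling, 8 times as many (4.26 to 16.6). Only 2 of its partners were common to both tissues. It had 27391 tags and 987 PETs in root against 347 tags and 23 PETs in seedling. Its partner number was the third highest in root and ranked 4076 in seedling. In ZS97 the same region had 117 partners in root and 32 in seedling.

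The others showed the same contrast from a lower start. Chromosome 12 at 19456834 to 19485252 had 50 partners in root, 45 of them on the same chromosome, and none listed in seedling, and ZS97 had 101 and 0. Chromosome 4 at 15762335 to 15785545 had 50 in root and 1 in seedling, 50 times as many (8.57 to 2014), and ZS97 had 31 and 0. Chromosome 9 at 6832020 to 6854246 had 54 and 6, of which 2 were common, and ZS97 had 41 and 0. Chromosome 7 at 6379258 to 6397644 had 49 and 3, and ZS97 had 29 and 0. Where seedling had listed anchors in these regions, the tags summed over listed anchors were higher in root as well, by 29.2 to 86.3 times after scaling on total tags.

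The 5 regions with the greatest loss were wide hubs that had 43 to 79 partners in root, of which 11 to 27 were also seedling partners. Chromosome 1 at 4954220 to 5091484 led, with 293 partners in seedling, 180 of them on other chromosomes, and 56 in root, 5.23-fold fewer (3.92 to 7.09), and 18 were common. Chromosome 11 at 19214911 to 19291355 had 208 in seedling and 44 in root. Chromosome 8 at 4386507 to 4501019 had 193 and 43. Chromosome 7 at 2097536 to 2260136 had 222 and 72, although its PETs were higher in root, 8165 against 6890, and 0.868 times those of seedling after scaling. Chromosome 2 at 16984222 to 17180348 had 219 and 79. ZS97 did not repeat this contrast at the chromosome 1 hub, with 308 partners in root and 232 in seedling, nor at chromosome 7, with 310 and 246. At the other 3 it had fewer partners in root, as MH63 did, though by less: 155 and 235 on chromosome 8, 281 and 336 on chromosome 2, and 162 and 172 on chromosome 11.

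The listing limit was high at these hubs in root. Of the 275 partners that the chromosome 1 hub had in seedling alone, 230 were looped elsewhere in root, where a median of 11 PETs would have been needed against a median of 4 PETs in seedling. After scaling on total tags 73 of the 230 reached their limit, and without scaling 32. At the chromosome 7 hub 16 of 176 did with scaling and 2 without, at chromosome 2 67 and 26 of 169, and at the chromosome 11 hub from 19214911 35 and 8 of 172. The hub at 17578538 to 17728023 on chromosome 12 had 86 of 149 above the limit with scaling and 37 without. Anchors were also cut differently: the chromosome 1 hub was 1 anchor in root and 4 in seedling, and the chromosome 7 hub was 2 in root and 8 in seedling.

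Hubs were defined as the 1% of regions with most partners in a tissue, 123 regions each (0.997% of 12343). The fewest partners of a hub were 44 in root and 96 in seedling, and the first region left out had the same number in each case. Of the root hubs 46 were also seedling hubs, 37.4% (28.8 to 46.6), the same share of the seedling hubs since the classes were of equal size. Hubs took part in 19.2% of seedling pairs but 8.79% of root pairs. As deposited, the seedling list was thus more concentrated on its leading regions. The largest number of partners was 293 in seedling and 107 in root, while the median over all looped regions was 9 and 11. These shares and partner numbers were not counted with a common highest p-value, at which seedling pairs between chromosomes numbered 25603 in place of 48003.

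Seedling hubs had fewer partners in root almost throughout. Their median was 116 partners in seedling and 41 in root, 115 of 123 were called lower in root and none higher, beside 14.1% and 23.4% of all regions compared, and a single hub had no listed partner in root. The median root hub had 50 partners in root and 77 in seedling, with 12 called higher in root and 38 lower. Since hubs were chosen by partner number in one of the tissues, the value that the calls use, these counts describe the hubs and are no evidence of a change at them. Only 4 root hubs had under 10 partners in seedling. Most root hubs were therefore also well connected in seedling. The 46 common hubs had medians of 54.5 partners in root and 129.5 in seedling and shared 11.8% of the partners they had in either tissue, at the median.

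In the lists as deposited, loss at hubs fell mainly on other chromosomes. At the common hubs the median number of partners on other chromosomes was 73.5 in seedling and 22.5 in root, and on the same chromosome 51 and 30. The 77 hubs of seedling alone had 72 and 17 on other chromosomes and 41 and 17 on the same one. The 77 hubs of root alone went the other way within their chromosome, with 34 partners in root and 23 in seedling, but not between chromosomes, with 16 and 30. The lists differ in their highest p-value. With a common one, root had more loops between chromosomes than seedling, 36853 against 25608. The partners of hubs by kind were not counted at that threshold. Chromosomes 11 and 12 held 29 and 26 of the 123 root hubs and 17 and 15 of the 123 seedling hubs. They held 783 and 604 of the 8502 regions compared, so hubs of both tissues were over that share, those of root by more. On chromosome 5 there were 2 root hubs and 9 seedling hubs, and on chromosome 8 there were 6 and 12.

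Fewer pairs among hubs were in the root list as deposited, above all between chromosomes. Pairs among hubs were not counted with a common highest p-value. Among the 123 seedling hubs 408 of 7503 possible pairs were listed in seedling, 202 of them between chromosomes. Among the 123 root hubs 273 were listed in root, 19 of them between chromosomes. On the same chromosome, root hubs thus had more pairs among them than seedling hubs did. Root hubs also had fewer partners of any kind in their own tissue, a median of 50 against 116. Over the 46 common hubs, 95 of 1035 possible pairs were listed in seedling and 33 in root, and 31 of these were the same pairs. Between chromosomes the common hubs had 37 pairs in seedling and 1 in root. The same hubs were single anchors in root and several in seedling at the median, 1 and 3 for both hub classes, and 81 of 123 seedling hubs had more anchors in seedling than in root. The part of this division, and of the higher listing limit, in the partner numbers of hubs was not tested beyond the counts above.

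**Figure D3:**
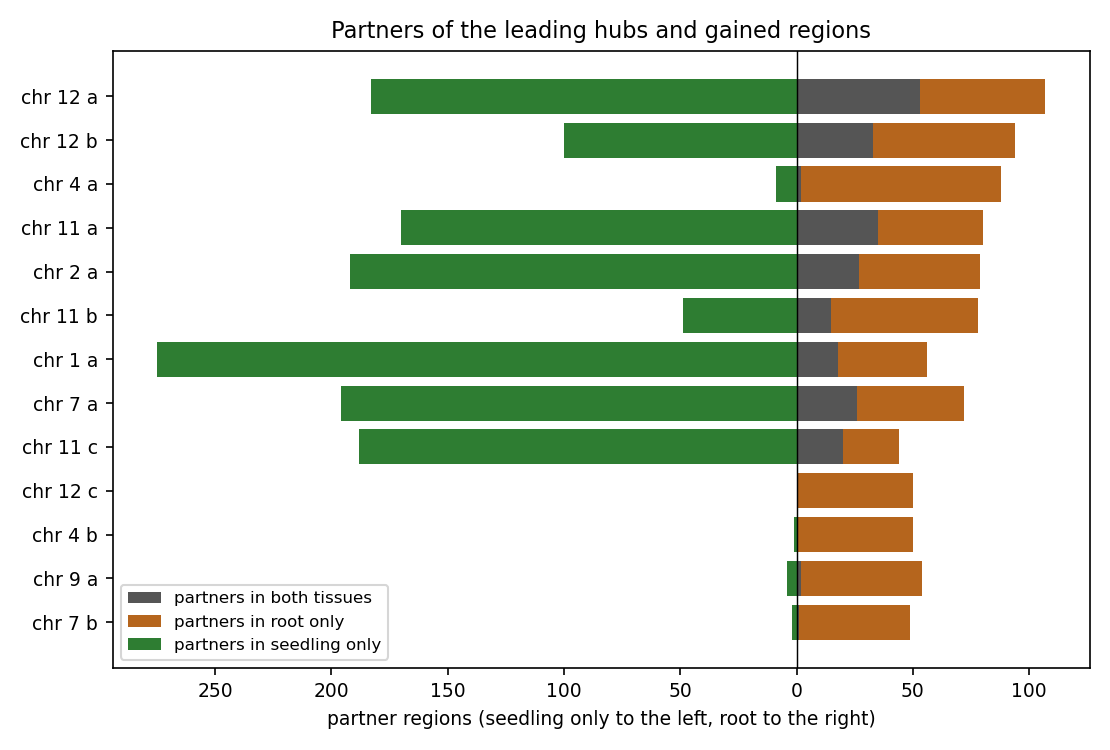
Partners of the leading hubs and of the regions with the greatest gain; bars give partners in both tissues and in root alone to the right and in seedling alone to the left. From the top, chr 12 a starts at 17578538, 12 b at 18741909, 4 a at 13074392, 11 a at 26110617, 2 a at 16984222, 11 b at 10414257, 1 a at 4954220, 7 a at 2097536, 11 c at 19214911, 12 c at 19456834, 4 b at 15762335, 9 a at 6832020 and 7 b at 6379258; the gained regions have almost no partners on the left, and the 1 a hub has 275.

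Of the 6 leading root hubs, 3 were called lower in root, 1 higher and 2 neither, and in each fewer than 20% of all partners were common to both tissues. The domain at 17578538 to 17728023 on chromosome 12 had 107 partners in root and 236 in seedling, ranking first and second, with 53 in common, 18.3% of all its partners. The next root hub, 18741909 to 18842915 on the same chromosome, had 94 and 133 with 33 in common, and had 2.14 times as many PETs in root after scaling. The domain at 26110617 to 26204868 on chromosome 11 had 80 and 205 with 35 in common. At 10414257 to 10475315 on chromosome 11 the numbers were close, 78 in root and 64 in seedling, but 15 were in common, so that 63 partners were listed in root alone and 49 in seedling alone. Its scaled PETs were 3.90 times those of seedling and its scaled tags 3.09 times.

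Turnover was described at regions with at least 20 partners in each tissue. Their median was 27 partners in root and 43 in seedling. Unequal numbers alone lower the share in common, so turnover was not fully set apart from gain and loss. There were 1456, and the median share of partners common to both tissues, of all partners in either (the Jaccard index), was 11.1%, with quartiles of 8% and 14.8%. Counting partners on the same chromosome only, the median was 28.6%. The index was over 20% at 99 regions, and 4 regions had no common partner. On chromosome 2 the region was 6940919 to 6951238 (22 partners in root, 21 in seedling), on chromosome 5 1461529 to 1474140 (23 and 48), on chromosome 9 9026954 to 9038712 (22 and 31) and on chromosome 10 7435944 to 7453591 (20 and 41). Most partners of these 4 regions lay on other chromosomes: at the chromosome 5 region 20 of 23 in root and 35 of 48 in seedling. The regions on chromosomes 5 and 10 were also called lower in root. Chromosome 11 at 1926344 to 1946943 came next, with 1 common partner of 40 and 56.

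The 5 regions that kept the largest share of partners were 7.83 to 20.5 kb wide, and at least as many of their partners lay on the same chromosome as on others, except at 11220993 on chromosome 10 in seedling, with 14 and 15. Chromosome 10 at 16736705 to 16744534 had 28 partners in root and 24 in seedling with 14 in common, a Jaccard index of 36.8%. Chromosome 1 at 1196108 to 1203952 had 27 and 24 with 12 in common. Chromosome 12 at 22916100 to 22927949 had 23 and 24 with 11, chromosome 10 at 11220993 to 11233092 had 27 and 29 with 13, and chromosome 12 at 15308901 to 15329416 had 41 and 35 with 17. None of these 5 regions differed between tissues beyond the counting interval of the ratio. Over all 7256 compared regions with partners in both tissues, 1403 had no partner in common (19.3%), and over the 4235 regions within 2-fold in number, 20.8% of root partners were also seedling partners.

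Loops within chromosomes were shorter in root when each loop counted once. The median span was 103 kb in root (101 to 105) and 181 kb in seedling (176 to 185), a ratio of 0.573. Root had a larger share of its loops from 20 to 100 kb than seedling, 36.7% against 26.8%, while from 100 kb to 1 Mb the shares were 38.1% and 37.2%. Loops from 1 to 5 Mb made up 5.79% in root (5.56 to 6.03) and 12.8% in seedling (12.5 to 13.1), and those over 5 Mb 7.07% and 11.8%. The number of loops from 100 kb to 1 Mb was nearly equal, 14529 in root and 14244 in seedling, but the median loop there had 5 PETs in root and 3 in seedling. Loops of 2 PETs were longer in both tissues, with medians of 161 kb in root and 362 kb in seedling.

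**Figure D4:**
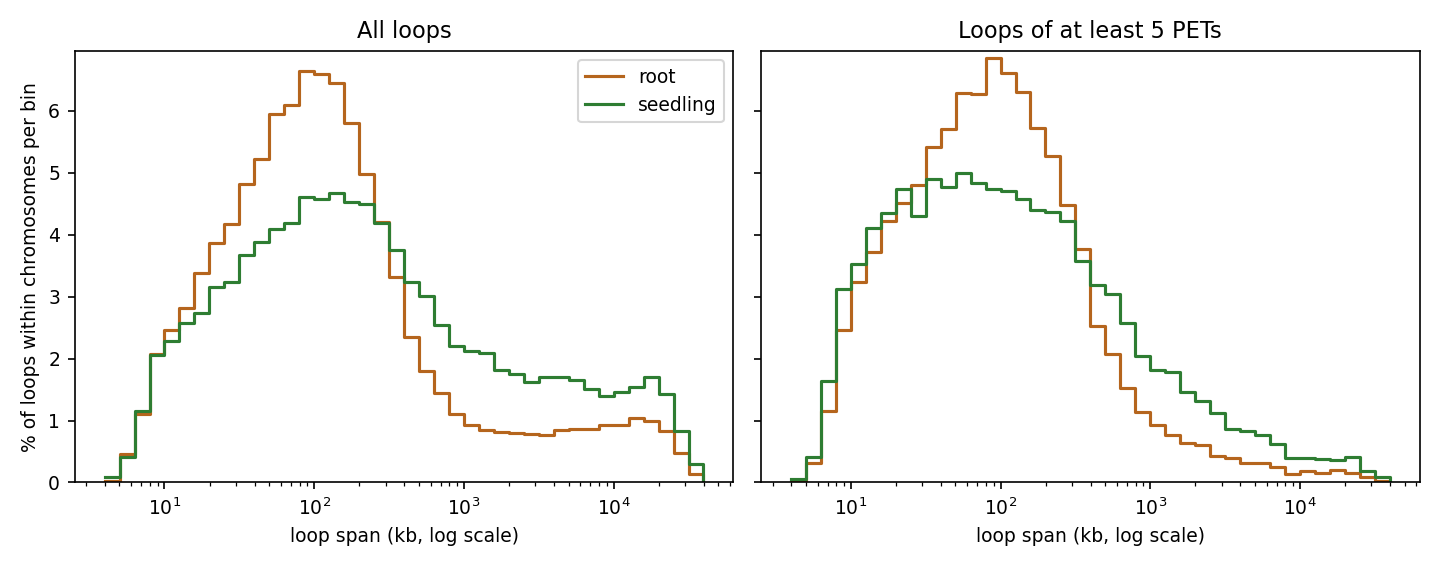
Distribution of loop span within chromosomes, as the percentage of loops per bin of 0.1 on the log10 scale, for all loops (left) and loops of at least 5 PETs (right). Root loops peak near 100 kb in both panels, and seedling has the higher share above 1 Mb (24.6% against 12.9% of all loops).

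The size of this difference depended on weak loops and on the threshold. Among loops of at least 5 PETs the medians were 84.5 kb in root and 98.0 kb in seedling, and with a common highest p-value 103 and 121 kb. Weighted by PETs they were 67.9 and 67.7 kb, so that the direction of the median was lost. The share over 1 Mb was lower in root in each of these settings: 5.61% against 12.8% with at least 5 PETs, 12.9% against 16.9% with a common highest p-value and 5.69% against 12.2% weighted by PETs. Pairs listed in seedling alone had a median distance of 834 kb (795 to 869), those listed in root alone 135 kb (132 to 138) and those in both 71.8 kb (69.6 to 74.2).

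All 12 chromosomes had a shorter median span in root. The seedling median was 1.36 times that of root on chromosome 4, the least, and 2.05 times on chromosome 1, the most. Chromosomes 12 and 11 had the longest loops in each tissue, with medians of 160 and 138 kb in root and 271 and 250 kb in seedling. Among loops of at least 5 PETs chromosomes 4 and 10 went the other way, with 84.4 kb in root and 61.6 kb in seedling on chromosome 4 and 74.2 and 67.9 kb on chromosome 10, and chromosome 6 was level at 61.8 and 61.7 kb. Chromosome 4 also had the largest excess of root loops, 3272 against 2502. The share of loops over 1 Mb was lower in root on each chromosome, from 8.75% against 21.5% on chromosome 10 to 18.2% against 29.9% on chromosome 12.

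Single long contacts set the tissues apart at the leading hubs. The strongest pair over 1 Mb listed in seedling alone joined the chromosome 12 hub at 17578538 to 17728023 with 22998397 to 23053799, 5.37 Mb away, by 350 PETs, where 199 PETs would have been listed in root. On chromosome 2 the hub at 16984222 met 22103251 to 22133564 with 177 PETs, against a root limit of 151. On chromosome 3 29316059 to 29379217 met 30372337 to 30429421 with 163 PETs, against a limit of 92. The fourth pair, between the hubs at 672231 to 777953 and 4386507 to 4501019 on chromosome 8, had 164 PETs and a root limit of 166, so its absence there is not informative at the same number of PETs. The remaining pair, 14052495 to 14086639 with the chromosome 12 hub, had 158 PETs and a limit of 94.

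The 5 strongest long pairs listed in root alone lay on chromosomes 12 and 11. The hub at 18741909 to 18842915 met 13292855 to 13350534, 5.47 Mb away, with 84 PETs, against a seedling limit of 7. The chromosome 12 hub at 17578538 met 19456834 to 19485252 with 84 PETs, a region with no listed loop in seedling. On the same chromosome 16836725 to 16927996 met 19765491 to 19823178 with 80 PETs, against a limit of 3, and 13469243 to 13491062 met the hub at 17578538 with 70, against 18. On chromosome 11 19106952 to 19200639 met 24939877 to 24999280 with 81 PETs, against 10. In ZS97 root the first, the second and the third of these chromosome 12 pairs were listed with 27, 11 and 22 PETs, and in ZS97 seedling none of them was listed. The remaining chromosome 12 pair was in neither ZS97 list, and the chromosome 11 pair had 7 PETs in ZS97 root and 23 in ZS97 seedling. Of the 5 long pairs of MH63 seedling alone, 3 were listed in ZS97 root and not in ZS97 seedling, with 39, 35 and 2 PETs, the chromosome 8 pair was listed in ZS97 seedling alone with 83 PETs, and the chromosome 3 pair in neither.

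Partners were more often partners of each other in root. A triad is closed when 2 partners of a region are also joined to each other. Within chromosomes 36.8% of triads were closed in root and 18.1% in seedling, with 51289 and 30502 triangles. The gap remained with a common highest p-value (36.8% and 22.4%), over region pairs of at least 5 PETs (39.5% and 24.6%) and over pairs under 1 Mb (47.0% and 34.6%). Root also had more pairs within chromosomes each time, 35986 against 30237 as deposited and 35986 against 24294 with the common p-value. Pairs of at least 5 PETs numbered 20426 and 11579, and those under 1 Mb 31100 and 21088. The part of pair number and span in this gap was not tested. Between chromosomes closed triads were rare, 0.109% in root and 0.388% in seedling, and with a common highest p-value 0.109% and 0.162%.

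Contacts between chromosomes were more numerous in the seedling list, and very few were listed in both tissues. The list of seedling held 48088 interchromosomal loops, 55.7% of its loops (55.3 to 56.0), and that of root 36876, 49.1% (48.8 to 49.5). With a common highest p-value the order turned round, to 44.8% in seedling and 49.1% in root. Interchromosomal loops held 25.4% of the seedling PETs and 15.7% of the root PETs. Most interchromosomal pairs had 2 PETs, 22553 of 36860 in root and 33266 of 48003 in seedling. Without a list per replicate, how often such pairs recur within a tissue is not known. Of pairs with 10 to 49 PETs, 5.43% of 626 in root were listed in seedling and 3.73% of 563 in seedling were listed in root. With 50 or more PETs, 6 of 10 root pairs and 2 of 3 seedling pairs were in the other list.

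The interchromosomal pair with most PETs over both tissues joined chromosome 6 at 23054180 to 23102526 to chromosome 11 at 21496647 to 21509825, with 107 PETs in root and 125 in seedling. Next was chromosome 5 at 9935249 to 9937479 with chromosome 8 at 18636041 to 18671231, at 76 and 60. These pairs were listed in both ZS97 lists too. The starts of chromosomes 11 and 12, which share a duplicated segment in rice, were joined from 791087 to 816628 and 808661 to 854704 by 93 PETs in root and 9 in seedling. How far reads of that segment can be placed on either copy was not tested. These pairs were ranked by PETs after their values were seen.

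Other strong pairs were in a single list. In root 13074392 to 13104735 on chromosome 4, the region with the greatest gain, met chromosome 11 at 20250437 to 20264065 with 78 PETs, where 2 PETs would have been listed in seedling. Chromosome 8 at 17010251 to 17070519 met chromosome 9 at 15526833 to 15583543 with 76 PETs, against a seedling limit of 17. The other 3 leading root pairs had 44 to 54 PETs and seedling limits of 43 to 50. In seedling 26226959 to 26244964 on chromosome 11 met the chromosome 12 hub at 17578538 with 74 PETs, against a root limit of 34. The other 4 had 37 to 48 PETs and root limits of 34 to 43, and the pair of chromosome 3 at 5726730 to 5801490 and chromosome 5 at 18735687 to 18761128 was under its limit, at 41 PETs against 43. None of these 10 pairs was listed in ZS97 root or seedling.

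Chromosome by chromosome, the tissues differed little in how interchromosomal loops were distributed. All 66 chromosome pairs were joined in both tissues, by 356 to 962 loops in root and 382 to 1333 in seedling. Loops per chromosome pair in root and seedling were correlated (Pearson r 0.93, Spearman rho 0.91), a description over 66 pairs that share their chromosomes. Set against the number that the loop ends of each chromosome would give, the pairs ranged from 0.882 to 1.12 times in root and from 0.908 to 1.08 times in seedling. Between tissues these ratios were only weakly correlated (Pearson r 0.23, Spearman rho 0.21).

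As a share of all interchromosomal loops, root over seedling ranged from 0.818 to 1.26 times. The interval lay above 1 for 9 chromosome pairs and below 1 for 9. Chromosomes 4 and 11 had the highest ratio, 1.26 (1.14 to 1.40), with 704 root loops and 728 seedling loops. It was followed by chromosomes 4 and 10 at 1.24 (1.09 to 1.42), 9 and 10 at 1.24 (1.07 to 1.43), 7 and 10 at 1.20 (1.07 to 1.36) and 6 and 10 at 1.18 (1.04 to 1.34). Chromosomes 2 and 5 had the lowest, 0.818 (0.728 to 0.919), with 473 and 754 loops, followed by 5 and 8 at 0.819, 2 and 3 at 0.826, 2 and 8 at 0.844 and 1 and 12 at 0.866. Each of these 10 kept its side of 1 with a common highest p-value, as did 58 of all 66 pairs. In ZS97 the ratio of chromosomes 4 and 11 was 1.27, but the other 4 high pairs were closer to 1, at 1.06 for chromosomes 4 and 10, 1.05 for 9 and 10 and for 6 and 10, and 0.949 for 7 and 10. The low pairs were at 0.834 for chromosomes 2 and 5, 0.903 for 5 and 8, 0.866 for 2 and 3, 0.932 for 2 and 8, and 1.01 for 1 and 12.

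**Figure D5:**
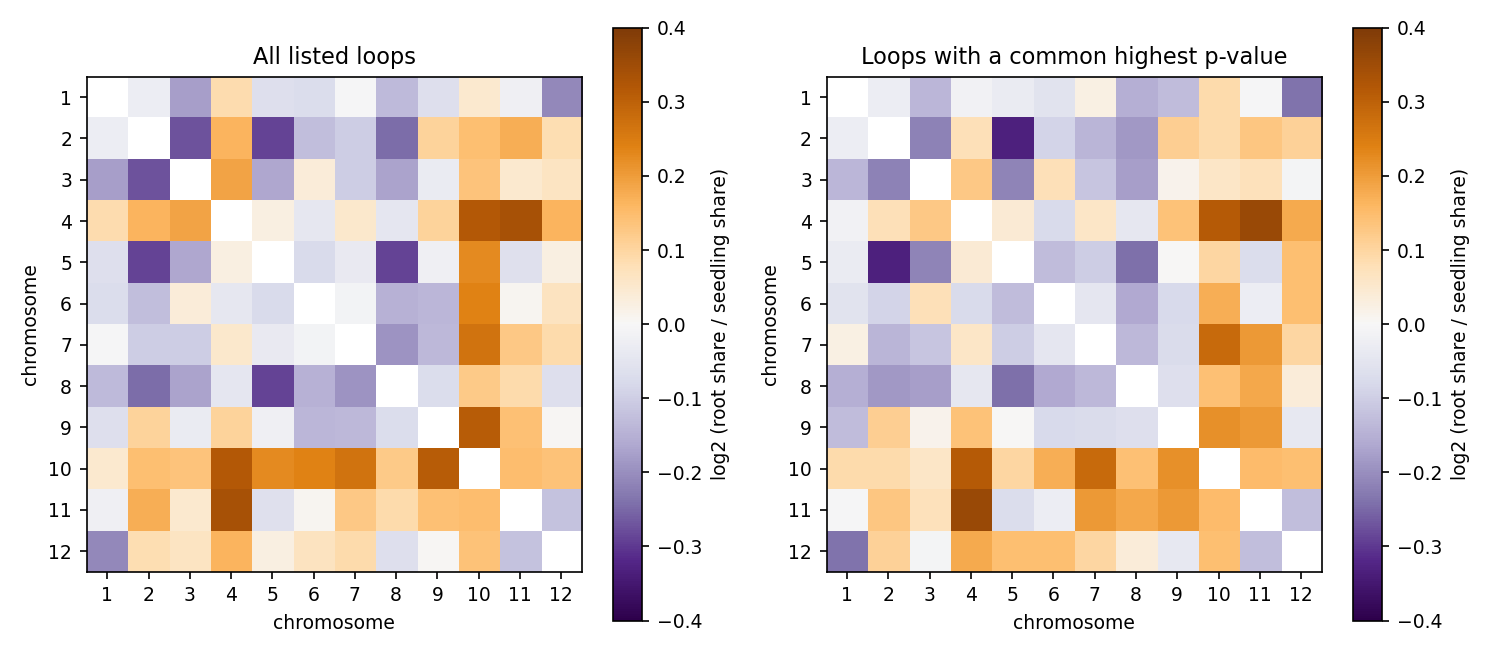
Share of interchromosomal loops for each pair of chromosomes, root over seedling on a log2 scale, for all listed loops (left) and with a common highest p-value (right). Chromosome 10 and the pair of chromosomes 4 and 11 are higher in root in both panels, and chromosomes 2, 3, 5 and 8 are lower among themselves.

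Of all 12 chromosomes, chromosome 10 had the largest excess of interchromosomal loop ends in root, with 7.19% of them against 6.34% in seedling, and chromosome 4 had 8.60% against 7.89%. Chromosome 8 had the largest deficit, 7.16% against 7.72%. In ZS97 chromosome 10 was level, at 6.42% in root and 6.43% in seedling, while chromosome 4 had 8.21% and 7.59%. The share of loops within chromosomes that lay on chromosome 4 was 1.31 times as high in root as in seedling, and 0.848 times on chromosome 8.

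The ZS97 lists, which share no library with those of MH63, were read over the same pairs. Their anchors helped to set the bounds of the regions, but whether a pair counted as listed in root, seedling or both rested on MH63 alone. The ZS97 root list held 36277 pairs within chromosomes and the ZS97 seedling list 20579. Of the pairs within chromosomes listed in MH63 root alone, 28.9% were listed in ZS97 root (28.3 to 29.4) and 5.71% in ZS97 seedling (5.43 to 6.01). Of those listed in MH63 seedling alone, 10.7% were matched in ZS97 root (10.3 to 11.1) and 11.5% were matched in ZS97 seedling (11.1 to 12). Of those in both MH63 tissues, 72.6% and 55.3% were. The share matched in ZS97 seedling was thus 0.198 times that matched in ZS97 root for pairs of MH63 root alone, 0.761 times for pairs of both and 1.08 times for pairs of MH63 seedling alone. Pairs of a single tissue leaned to the same tissue of ZS97 when set beside the pairs of both.

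The ratio of these shares differed with distance. Under 20 kb 38.7% of the pairs listed in MH63 seedling alone were in ZS97 seedling and 18.8% in ZS97 root, and from 20 to 100 kb 32% and 19.4%. From 100 kb to 1 Mb more were in ZS97 root, the longer list, with 14.8% matched in ZS97 seedling (14 to 15.7) against 16.9% matched in ZS97 root (16.0 to 17.7), and from 1 to 5 Mb 2.91% and 4.83%. Between chromosomes the pairs of MH63 root alone were in ZS97 root in 0.466% of cases and in ZS97 seedling in 0.259%, and those of MH63 seedling alone in 0.667% and 0.660%. The 153 interchromosomal pairs of both MH63 tissues were matched by ZS97 root in 19.0% of cases (13.1 to 26.1) and by ZS97 seedling in 17.0% (11.4 to 23.9). Total tags differed between the ZS97 lists, 13353268 in root and 51154199 in seedling, and their part in these shares was not tested.

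Partner numbers were compared in ZS97 too. There 20.2% of 8394 regions had at least 2-fold more partners in root and 15.1% fewer. Of 1153 regions with more partners in MH63 root that were also compared in ZS97, 788 had more in ZS97 root (68.3%) and 24 fewer (2.08%). Of 1157 regions with fewer partners in MH63 root, 208 had fewer in ZS97 root (18.0%) and 28 had more (2.42%). Of 4605 regions compared in both varieties but not called in MH63, 482 had fewer in ZS97 root (10.5%) and 518 had more (11.2%). The 8394 regions also include some that were not compared in MH63. Of the MH63 hubs in root alone, 18 of 77 were ZS97 root hubs and 10 were ZS97 seedling hubs. Of those in seedling alone, 48 of 77 were ZS97 seedling hubs and 45 were ZS97 root hubs.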

How the data were processed

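H3K27me3 ChIA-PET of MH63 roots and seedlings was analysed, 2 replicates per tissue, with the lists of the same tissues of ZS97 beside it. The labels' protocols give dual cross-linking (formaldehyde 1% for 10 min, then EGS 1.5 mM for 30 min) and ends ligated through a biotinylated linker, read as 150 bp pairs. The authors deposited 1 loop list per group with replicates pooled: counts of PETs and of tags per anchor, not normalised, with a p-value and a false discovery rate (FDR, at most 0.0499) per loop as deposited. The caller of the loops, the aligner and the build were not given in the sources used here, and no annotation or genome of this build was used, so regions carry no gene names or sequences. Coordinates are 1-based.

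Anchors of the 4 indica lists that overlapped by at least 1 bp were merged into regions, and loops were joined over regions. Unplaced sequence held 23 root and 28 seedling loops, left out of chromosome pairs. Expected loops per chromosome pair kept each chromosome's number of loop ends. Intervals are exact Clopper-Pearson and, for medians, binomial order statistics. PETs are amplified molecules and partners of a region are not independent, so true errors may be wider. A pair that is not listed fell below the authors' thresholds, which does not show that the contact was missing. Members, regions and settings were chosen with earlier results of these data known. Named regions are the 6 with most partners per tissue, the 5 with the greatest gain and loss, the 5 with the lowest and highest Jaccard index, the 5 strongest pairs per tissue and kind, and 10 chromosome pairs. Python 3.11.15, pandas 2.3.3, scipy 1.17.1 and networkx 3.6.1 were used.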

Additional observations from a re-analysis of the deposited data

How the results depend on the processing

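No paired analysis was possible because the lists pool both replicates, and leaving out a replicate was not possible for the same reason. Of 94 values under other settings, 6 could not move, being spans and shares of loops in settings that change regions alone. Of the other 88, 31 moved by no more than counting error, or 1.5 times for counts of regions.
The regions with more and with fewer partners in root numbered 1167 and 341 with loops of at least 3 PETs, 651 and 116 with at least 5 PETs, and 468 and 605 at an FDR below 0.01. Those with fewer numbered 213 with a common highest p-value, 755 with the same number of loops and 1849 in bins of 10 kb. On the same chromosome alone they were 777 and 349, and 406 had more on other chromosomes. Scaled on region pairs, 24.8% had more and 11.9% fewer. Chosen after seeing the data, pairs above the listing limit gave 211 and 1856 with scaled PETs, and 151 with fewer unscaled.
The share of root pairs within chromosomes found in seedling was 31.0% with at least 3 PETs, 30.2% with at least 5, 36.3% at an FDR below 0.01, 30.4% with a common highest p-value, 31.0% over regions of the MH63 lists, 26.3% in bins, 25.7% without anchors of 20 kb or wider, and 58.1% and 46.2% above the limit with and without scaling. Between chromosomes it was 0.524%, 0.780%, 0.803% and 0.277% in the first 4 of these, 0.323% in bins, 0.309% without wide anchors, and 2.34% and 0.598% above the limit.
The ratio of median spans was 0.712 and 0.862 with at least 3 and 5 PETs, 0.765 at an FDR below 0.01, 0.851 with a common highest p-value, 0.664 with the same number of loops and 0.656 without wide anchors, and it reversed to 1.002 when weighted by PETs. The share over 1 Mb differed by -9.19, -7.19, -7.85, -4.02, -8.96 and -9.15 percentage points in these settings and by -6.54 when weighted. The share between chromosomes differed by -5.38, -4.16 and -15.0 points in the first 3, reversed to 4.36 with a common highest p-value, and was -3.07 with the same number of loops, -5.24 without wide anchors and -9.72 weighted.
Root hubs that were seedling hubs made up 26.2% at an FDR below 0.01, 18.2% in bins, 10.4% without wide anchors and 52.2% when hubs were 5% of regions. The causes were not tested.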
